A study of Mus musculus with 2 samples.

Results

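Endothelial cells were described in 2 single-cell RNA-seq libraries of sorted mouse lung cells, 1 from late gestation (E18.5) and 1 from postnatal day 10 (P10). A cell was counted as endothelial when at least 4 of 6 genes, Cldn5, Cdh5, Calcrl, Ptprb, Emcn and Ramp2, each had a unique molecular identifier (UMI, a tag that marks 1 captured transcript). Members were thus chosen by their measured counts of these 6 genes. The rule found 328 of 12027 cells at E18.5 (2.73%, exact binomial 95% interval 2.44 to 3.03) and 449 of 14086 cells at P10 (3.19%, 2.90 to 3.49), or 777 of 26113 cells in all. These shares describe a sorted fraction and not the lung.

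Both libraries came from Cdh16CreERT2 mice, in which tamoxifen activates a Cre recombinase in cells that use the Cdh16 promoter and the recombinase turns on the red reporter tdTomato from the R26 locus. The design text gives the animals 1 floxed and 1 wild-type reporter allele (Cdh16CreERT2/wt;R26-tdTomatoflox/wt), whereas the sample labels give Cdh16CreERT2;tdTomatoflox/flox. Pregnant females received tamoxifen from E12.5 on, injected at 0.1 mg per kg body weight or fed at 0.4 g per kg food, and which library had which route is not stated. The groups carry the same genotype label and batch 1 and differ in age, and whether the route of tamoxifen also differs between them is not known. Red cells were sorted within the population stained for CD326, the protein encoded by Epcam, and libraries were made from transcript 3' ends on a droplet platform. The labels call both samples alveolar epithelial cells and give embryonic lung as the tissue even of the P10 library, so the cells described here carry a cell type that the labels do not name. With 1 library per age, age and library cannot be told apart, no difference has a replicate check, and every interval below covers counting error only.

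Lung endothelium lines the vessels through which blood passes the air spaces. Its capillaries hold general capillary cells, which regulate vessel tone and give rise to other capillary cells, and aerocytes, large flat cells specialised for gas exchange, while arteries, veins and lymphatic vessels have endothelium of their own. The 6 genes of the rule work at the cell surface: Cldn5 and Cdh5 (VE-cadherin) build the junctions between endothelial cells, Calcrl and Ramp2 form the receptor for adrenomedullin, a peptide that stabilises vessels, Ptprb is a phosphatase that restrains the receptor Tek, and Emcn encodes endomucin, a sialoglycoprotein of the surface facing the blood. Growth and stability of these vessels depend on VEGF, angiopoietin, Notch and BMP signals and on transcription factors of the ETS and SOX families.

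On GRCm38, GENCODE vM21 places Cldn5 at chr16:18776847-18778262 on the plus strand, Cdh5 at chr8:104101625-104144511 on the plus strand and Calcrl at chr2:84330626-84425411 on the minus strand. Ptprb lies at chr10:116275523-116389535 on the plus strand, Emcn at chr3:137341067-137432185 on the plus strand and Ramp2 at chr11:101246028-101259546 on the plus strand. The promoters of Cldn5, Calcrl and Emcn are shown because the rule genes are high in the same cells, and AGGAAG, letters that ETS-family factors can bind, was searched for in them. Each sequence is the 250 bases before the RefSeq gene start on GRCm38.p6, 5′ to 3′ on the gene's strand, with any match to AGGAAG or its reverse complement CTTCCT in capitals. The RefSeq starts differ from the GENCODE starts for Calcrl and Emcn. The windows are chr16:18776597-18776846 on the plus strand for Cldn5, chr2:84425267-84425516 on the minus strand for Calcrl and chr3:137340828-137341077 on the plus strand for Emcn.
Cldn5: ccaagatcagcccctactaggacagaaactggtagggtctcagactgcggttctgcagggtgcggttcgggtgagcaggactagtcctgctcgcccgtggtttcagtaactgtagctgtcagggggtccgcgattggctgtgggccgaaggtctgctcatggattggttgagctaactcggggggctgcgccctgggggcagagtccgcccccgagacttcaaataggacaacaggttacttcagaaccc
Calcrl: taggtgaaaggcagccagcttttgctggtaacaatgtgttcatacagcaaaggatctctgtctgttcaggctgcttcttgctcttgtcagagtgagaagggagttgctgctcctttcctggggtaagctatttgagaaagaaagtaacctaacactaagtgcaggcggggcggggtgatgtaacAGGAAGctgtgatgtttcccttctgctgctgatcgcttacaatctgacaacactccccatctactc
Emcn: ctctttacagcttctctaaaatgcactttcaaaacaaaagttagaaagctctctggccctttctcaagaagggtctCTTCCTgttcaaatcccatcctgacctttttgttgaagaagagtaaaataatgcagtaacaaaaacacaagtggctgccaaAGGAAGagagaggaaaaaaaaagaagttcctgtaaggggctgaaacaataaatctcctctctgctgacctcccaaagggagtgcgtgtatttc
The Cldn5 window held 0 matches, the Calcrl window 1, starting 66 bases before the gene start, and the Emcn window 2, starting 174 and 93 bases before it. Windows were found for 13 of 24 rule and marker genes, several of them with more than 1 start, and 10 of these 17 windows (58.8%) held the letters on either strand, against 9686 of 32851 windows of all genes (29.5%). A match is a match of letters only.

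Levels were obtained by summing UMIs over the members of a library and scaling each sum to the same total (CPM, counts scaled to a fixed total), and the remaining cells of the same library were summed the same way. Since these genes chose the cells, their levels are given as a description. Cldn5 stood at 747 (E18.5) and 646 CPM (P10) in members and at 4.77 and 6.61 CPM in the remaining cells. Cdh5 stood at 569 (E18.5) and 515 CPM (P10), against 2.81 and 4.09 CPM. The members' levels of both junction genes differed little between the ages.

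Calcrl was at 576 (E18.5) and 1010.2 CPM (P10) in members and 2.91 and 9.20 CPM in the remaining cells, and Ramp2, its partner, was at 571 (E18.5) and 1158 CPM (P10) against 5.35 and 14.99 CPM. Ptprb was at 452 (E18.5) and 926 CPM (P10) against 2.01 and 7.45 CPM. All 3 were thus higher at P10, in members and in the remaining cells alike. Emcn went the other way, with 341 (E18.5) and 142 CPM (P10), against 1.69 and 1.19 CPM in the remaining cells. The ratio of members to remaining cells lay between 107-fold (Ramp2) and 225-fold (Ptprb) at E18.5 and between 77.3-fold (Ramp2) and 126-fold (Cdh5) at P10.

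Detection was compared after thinning every cell to 3000 UMIs, which left 254 members and 10441 remaining cells at E18.5 and 422 and 12841 at P10. Cldn5 then had a UMI in 73.2% of members and 1.33% of remaining cells at E18.5, and in 78.2% and 1.94% at P10. Emcn was found in 59.4% of thinned members at E18.5 and 35.3% at P10, and Ramp2 in 72.0% and 87.7%. Before thinning, the members' median depth was 8352.5 UMIs at E18.5 and 11385 at P10, beside 8974 and 10245 in the remaining cells.

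At the edge of the rule, 39 cells at E18.5 and 171 at P10 had 3 of the 6 genes and stayed out, while 42 and 50 had 4 and were members. The rule genes took a median of 0.0354% of UMIs in the former and 0.217% in the latter at E18.5, and 0.0148% and 0.0983% at P10. The cells just outside were also the deeper ones, with median depths of 11130 against 6087 UMIs at E18.5 and 20856 against 13947.5 at P10. Over all members the median was 0.538% and 0.693%. The counts of cells by number of rule genes had a second mode at 6 genes in both libraries.

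**Figure D1:**
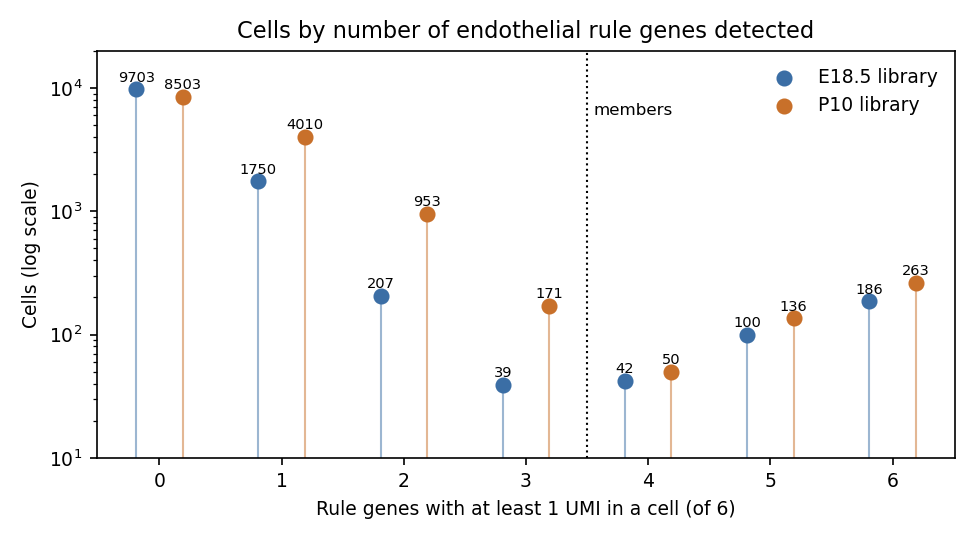
Cells (log scale) by the number of rule genes with at least 1 UMI, in the E18.5 library (blue) and the P10 library (orange), with the count above each point. Cells to the right of the dotted line are members, and 186 cells at E18.5 and 263 at P10 had all 6 genes.

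The cell filter kept 12027 of 12739 barcodes at E18.5 and 14086 of 14503 at P10, from 137837590 and 171205348 deposited UMIs, of which members held 4338293 and 7672997. The libraries shared 59 cell barcodes, none of them a member's. No doublet caller was run, so droplets with RNA of more than 1 cell remain. Of the members, 37 at E18.5 and 35 at P10 also carried at least 4 of 6 leukocyte genes (Ptprc, Coro1a, Laptm5, Rac2, Cytip and Cd53), 9 and 39 carried at least 4 of 6 fibroblast genes (Col1a1, Col1a2, Col3a1, Dcn, Mfap4 and Pdgfra), and 43 and 68 passed either rule. Cells outside the members that passed 1 of these rules alone, 1510 and 1579 leukocytes and 430 and 324 fibroblasts, served as references that share each library's handling.

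The gene of the sorting antibody's target did not set members apart from other non-epithelial cells. Epcam was at 197 (E18.5) and 106 CPM (P10) in members, at 235 and 126 CPM in the leukocytes, at 153 and 90.5 CPM in the fibroblasts and at 333 and 186 CPM in all remaining cells. Cdh16, whose promoter drives the recombinase, had 6 UMIs in the E18.5 members and 4 in the P10 members (1.38 and 0.521 CPM), beside 2.60 and 0.778 CPM in the remaining cells.

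The label was checked on 18 endothelial genes that the rule did not use. All 18 were at least 2-fold higher in members than in the remaining cells of both libraries, where 10.6% of 9260 measured genes at E18.5 and 16.4% of 9559 at P10 were. Lower by at least 2-fold were 1.91% of genes at E18.5 and 1.48% at P10. Genes with at least 10 CPM in either set of cells were measured. The median log2 ratio of the 18 genes was 6.57 at E18.5 and 6.26 at P10, against 0.11 and 0.21 over all measured genes. The rule used cells in this same contrast, so these counts say that the members carry an endothelial profile and are no test of it.

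The junction and adhesion gene Pecam1 (CD31) stood at 435 (E18.5) and 522 CPM (P10) in members and at 28.9 and 53.2 CPM in the remaining cells. Esam, an endothelial adhesion molecule, had the smallest ratio of the 18 in both libraries, with 355 (E18.5) and 275 CPM (P10) against 94.5 and 41.6 CPM. The remaining cells thus also held UMIs of these 2 genes. Sox17, a transcription factor of arterial and capillary endothelium, stood at 155 (E18.5) and 68.2 CPM (P10) against 0.761 and 0.607 CPM. Cyyr1 was at 289 (E18.5) and 524 CPM (P10) against 1.28 and 3.88 CPM, and the receptor kinase Tie1 at 60.2 (E18.5) and 82.2 CPM (P10) against 0.399 and 0.931 CPM. For these 3 genes the remaining cells were below 4 CPM in both libraries.

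**Figure D2:**
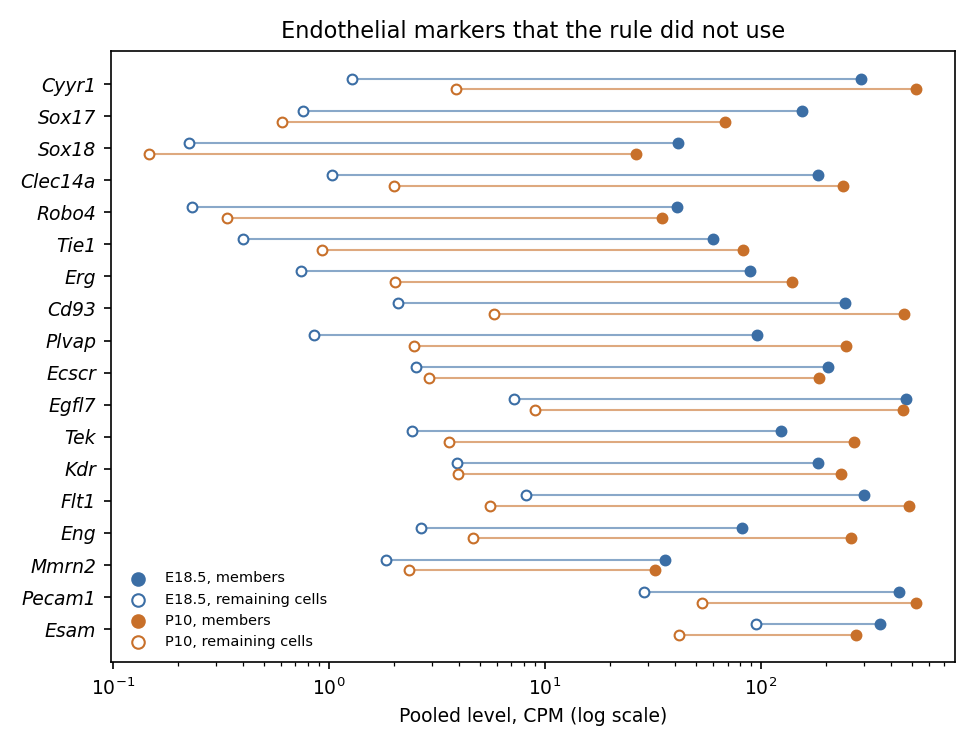
Pooled level in CPM (log scale) of the 18 endothelial genes outside the rule, in members (filled) and remaining cells (open) of the E18.5 (blue) and P10 (orange) libraries, joined by a line per gene. Filled points lie to the right of open points for each gene and age, most closely for Esam and Pecam1.

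Among genes at 50 CPM or more in members, the 15 with the largest ratio to the remaining cells were ranked in each library, and 7 genes were in both rankings. Cyyr1 led at E18.5 with 226-fold (192 to 267) and Ccdc85a at P10 with 139.7-fold (124 to 158). Both stood in both rankings, together with Adgrl4 and Clec14a, which encode surface proteins of angiogenic endothelium, Lyve1, a hyaluronan receptor, Shank3 and Sox17. Adgrl4 was at 213 (E18.5) and 370.0 CPM (P10) against 1.30 and 2.98 CPM, Clec14a at 183 (E18.5) and 239 CPM (P10) against 1.03 and 2.00 CPM and Lyve1 at 162 (E18.5) and 518 CPM (P10) against 1.08 and 5.01 CPM.

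The E18.5 list also held S1pr1, the sphingosine 1-phosphate receptor that tightens junctions, with 169 against 1.07 CPM, and Gpihbp1, which carries lipoprotein lipase across capillary cells, with 273 against 2.00 CPM. It further held Tie1, Stmn2, Tmem252, Grrp1, Rasgrp3 and the sodium channel gene Scn7a, which stood at 568 against 3.92 CPM. The P10 list held Glp1r, the receptor for glucagon-like peptide 1, with 116 against 1.10 CPM, Plvap, which forms the diaphragms of fenestrae and caveolae, with 247 against 2.48 CPM, and the secreted guidance factor Sema3g with 50.2 against 0.423 CPM. Clec1a, Myrip, Sox7, Slco1c1 and Fgd5 completed it.

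Several epithelial lists had genes lower in members, each at 1 age only, and the pericyte and smooth muscle list had genes higher. Of the fibroblast list 0 of 7 measured genes at E18.5 and 3 of 8 at P10 were higher. At E18.5, 6 of 6 ciliated cell genes and 5 of 5 club cell genes were at least 2-fold lower in members, and at P10 6 of 10 genes of surfactant-making alveolar type 2 (AT2) cells were, Sftpc, Sftpb, Cxcl15, Slc34a2, Lamp3 and Napsa. At the other age these lists were not lower. At P10, 4 of 5 club cell genes and 1 of 2 measured ciliated cell genes were higher in members and 0 lower. At E18.5, 0 of 10 AT2 genes were lower. Of 12 alveolar type 1 cell genes 0 were lower at either age, and 3, Hopx, Rtkn2 and Clic5, were higher at P10. Lymphocyte genes summed to 12.2 CPM in members at E18.5, with Cd3e, Cd3d, Nkg7 and Ltb at 0 UMIs, and to 47.0 CPM at P10, with none of these 4 at 0. At P10 all 3 measured lymphocyte genes, Cd79a, Cd79b and Il7r, were at least 2-fold lower in members than in the remaining cells. Myeloid genes summed to 4118 and 7882 CPM in members and 5004 and 15708 CPM in the remaining cells, most of it Lyz2, which AT2 cells also make. Pericyte and smooth muscle genes summed to 234 and 453 CPM in members and 156 and 167 CPM in the remaining cells, and 5 of 7 measured genes at E18.5 and 6 of 9 at P10, among them Pdgfrb, Postn and Gucy1a1, were at least 2-fold higher in members. At P10 1 gene of this list, Acta2, was lower in members, with a log2 ratio of -1.37. Red cell and platelet genes summed to 3344 and 70.9 CPM in members and 1091 and 79.8 CPM in the remaining cells. None of the 10 genes of the AT2, pericyte or myeloid lists was at 0 in members.

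Members carried alveolar RNA in both libraries, and their lowest share of it was that of the other non-epithelial cells. The 10 AT2 genes took a median of 0.838% of a member's UMIs at E18.5 and 2.78% at P10, against 1.57% and 17.8% in the remaining cells. At the 10th percentile the share was 0.602% in members, 0.617% in leukocytes and 0.559% in fibroblasts at E18.5. At P10 it was 2.23%, 2.25% and 2.09%. This lowest share was therefore higher at P10 in all 3 kinds of cell.

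A second set of members lay far above it. With a line at 2% for E18.5 and 5% for P10, drawn after the distributions had been seen, 92 members at E18.5 (28.0%, 23.3 to 33.2) and 147 at P10 (32.7%, 28.4 to 37.3) were above, and 8 and 12 members lay within 20% of the line. These members had median depths of 22787 and 24622 UMIs, against 4795 and 5898.5 UMIs below the line, so that summed levels weight them strongly. Of the leukocytes 30.0% and 31.9% were above the same lines, and of the fibroblasts 14.9% and 28.4%. Whether such droplets held more than 1 cell was not tested.

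**Figure D3:**
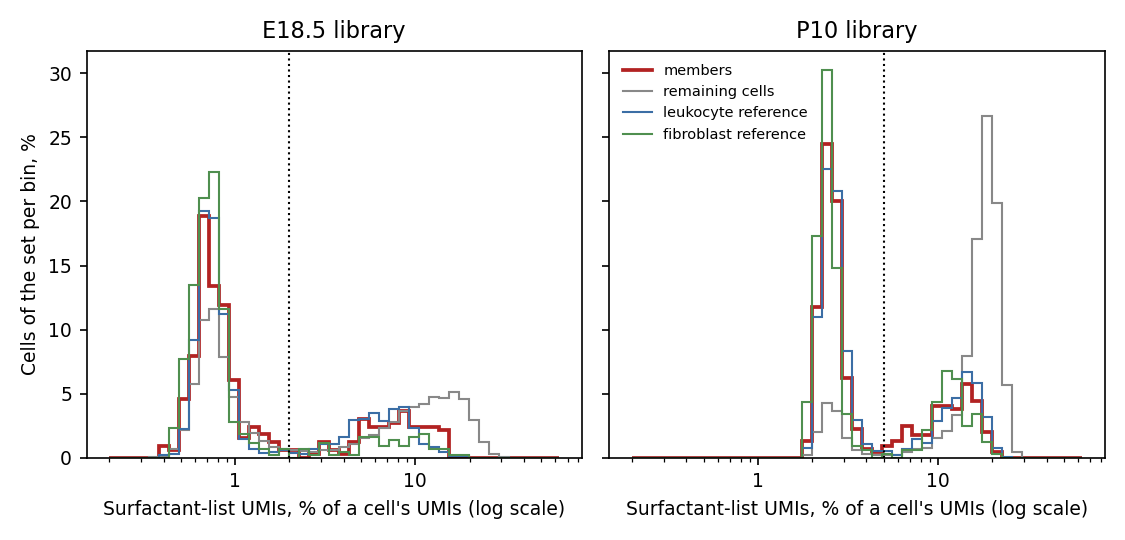
Share of a cell's UMIs on the 10 AT2 genes (log scale) in members (red), remaining cells (grey), leukocytes (blue) and fibroblasts (green) of each library, as percent of the cells of a set per bin, with the line used to split members dotted. The low peaks of members, leukocytes and fibroblasts lie close together, with medians of 0.745% at E18.5 and 2.52% at P10 in the members at or below the line, and a second group reaches the range of the remaining cells.

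Sftpc, the surfactant protein C gene of AT2 cells, stood at 40632 (E18.5) and 61534 CPM (P10) in members and at 62996 and 132515 CPM in the remaining cells. In members at or below the line it stood at 6017 and 18941 CPM. Per 100 Sftpc UMIs, members had 6.38 Sftpa1 UMIs at E18.5 and 12.9 at P10, and the remaining cells 6.10 and 11.5. For Sftpb the numbers were 2.47 and 5.01 in members and 2.59 and 4.80 in the remaining cells. The surfactant genes thus stood in nearly the same ratio to each other in members as in the library around them.

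Genes of alveolar type 1 (AT1) cells, the flat gas-exchange epithelium, summed to 7811 (E18.5) and 2012 CPM (P10) in members and to 11472 and 2211 CPM in the remaining cells. Ager, the receptor that defines AT1 cells, was at 2229.9 (E18.5) and 478 CPM (P10) in members and at 3374 and 636 CPM in the remaining cells. Clic5, which aerocytes also express, was at 557 (E18.5) and 283 CPM (P10) in members and at 639 and 28.4 CPM in the remaining cells. Cav1, the caveolar coat protein of AT1 cells and endothelium, was at 879 (E18.5) and 406 CPM (P10) and 491 and 14.7 CPM. For Ager the members were the lower set at both ages, while for Clic5 and Cav1 they were the higher set at P10, by 9.97-fold (9.47 to 10.5) and 27.7-fold (26.2 to 29.2).

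Airway RNA was concentrated in a few members. The 5 club cell genes summed to 884 CPM in members and 5758 CPM in the remaining cells at E18.5, but to 15414 and 5655 CPM at P10. Scgb1a1, the main secreted protein of club cells, was at 738 (E18.5) and 14109 CPM (P10) in members. When the 6 members with over 1% of UMIs on these genes were left out, 443 members remained and the log2 ratio of Scgb1a1 to the remaining cells at P10 went from 1.55 to -2.05.

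Because the deep droplets above the line weigh on the sums, levels are also given below for the members at or below the line that passed neither second rule, 211 at E18.5 and 268 at P10, called the low-surfactant members. In them Cldn5 stood at 1521 and 1238 CPM and Cdh5 at 1057 and 974 CPM, above their levels over all members.

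Clustering the members of each library on their own gave 9 groups at E18.5 and 10 at P10. Of these, 161 members at E18.5 (49.1%) and 296 at P10 (65.9%) lay in groups that carried no cell class other than endothelium, a class being carried with 3 or more raised markers. Markers of dividing cells were not counted as a class here. Clusters are named here from fixed marker lists, and the genes that define them are descriptions of the grouping.

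At E18.5 the largest group, with 84 cells, was general capillary-like, with 8 of 10 markers raised and Gpihbp1 among its leading genes. It also had 4 of 12 aerocyte markers raised, Ednrb, Prx, Kdr and Cyp4b1, and 1 of 12 arterial markers. A group of 10 cells was arterial-like with 12 of 12 markers raised, among them Gja4, Gja5 and Dkk2, and a group of 6 was lymphatic-like with 10 of 11, led by Ccl21a, Reln and Mmrn1. In this lymphatic-like group 10 of 10 markers of dividing cells were raised as well, among them Mki67 and Top2a. A group of 17 had 6 of 11 venous markers raised and was led by Selp, but the ciliary genes Tmem212, Stk33, Dnah5 and Cfap206 were also among its 10 leading genes, and it was left unnamed. It carried 2 of 6 ciliated cell markers and so stayed among the 161 members. The other groups without a name were those carrying AT2 genes (66 cells), AT1, fibroblast and pericyte genes (47), myeloid and fibroblast genes (39) and haemoglobin (15), and a group of 44 led by Ccdc85a.

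At P10 a group of 112 cells was general capillary-like with 10 of 10 markers raised, led by Bmp6. It also had 6 of 12 arterial and 0 of 12 aerocyte markers raised. The general capillary-like groups of the 2 ages are thus not matched in these markers, which limits the comparisons between them below. A further 2 groups of 44 and 30 cells were aerocyte-like with 11 of 12 markers each, led by Car4, Ednrb and Fibin. These 2 groups differed in depth, with median depths of 3764 and 14271.5 UMIs. A group of 69 was venous-like, led by Slc6a2, the noradrenaline transporter, and Vwf. The arterial-like group had 28 cells and 8 of 12 markers, and the lymphatic-like group 13 cells and 11 of 11. Unnamed groups carried AT2 and AT1 genes (57 cells), fibroblast and pericyte genes (51), club and ciliated genes (26) and myeloid genes (19).

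The names depended on how finely cells were grouped. No group at E18.5 was aerocyte-like at any of the 3 resolutions run (0.4, 0.8 and 1.2). At 0.8, however, 5 of 12 aerocyte markers were raised in the E18.5 group of 44 cells, and 4 of 12 in those of 84 and 15. The group of 44 also had 6 of 10 general capillary and 3 of 12 arterial markers raised. None of these aerocyte markers was among the 10 leading genes of its group, which the naming rule asks for. The missing name therefore does not say that aerocytes were absent at E18.5. At 0.4 no group was general capillary-like or venous-like in either library. At 1.2 the general capillary-like groups held 51 and 130 cells, and the venous-like groups 0 and 22. The arterial-like cells at P10 numbered 184 at 0.4 and 28 at 0.8, and the lymphatic-like cells at E18.5 38 at 0.4 and 6 at 0.8. The aerocyte-like cells at P10 numbered 74 at each of the 3. Group sizes are therefore not compared between ages.

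**Figure D4:**
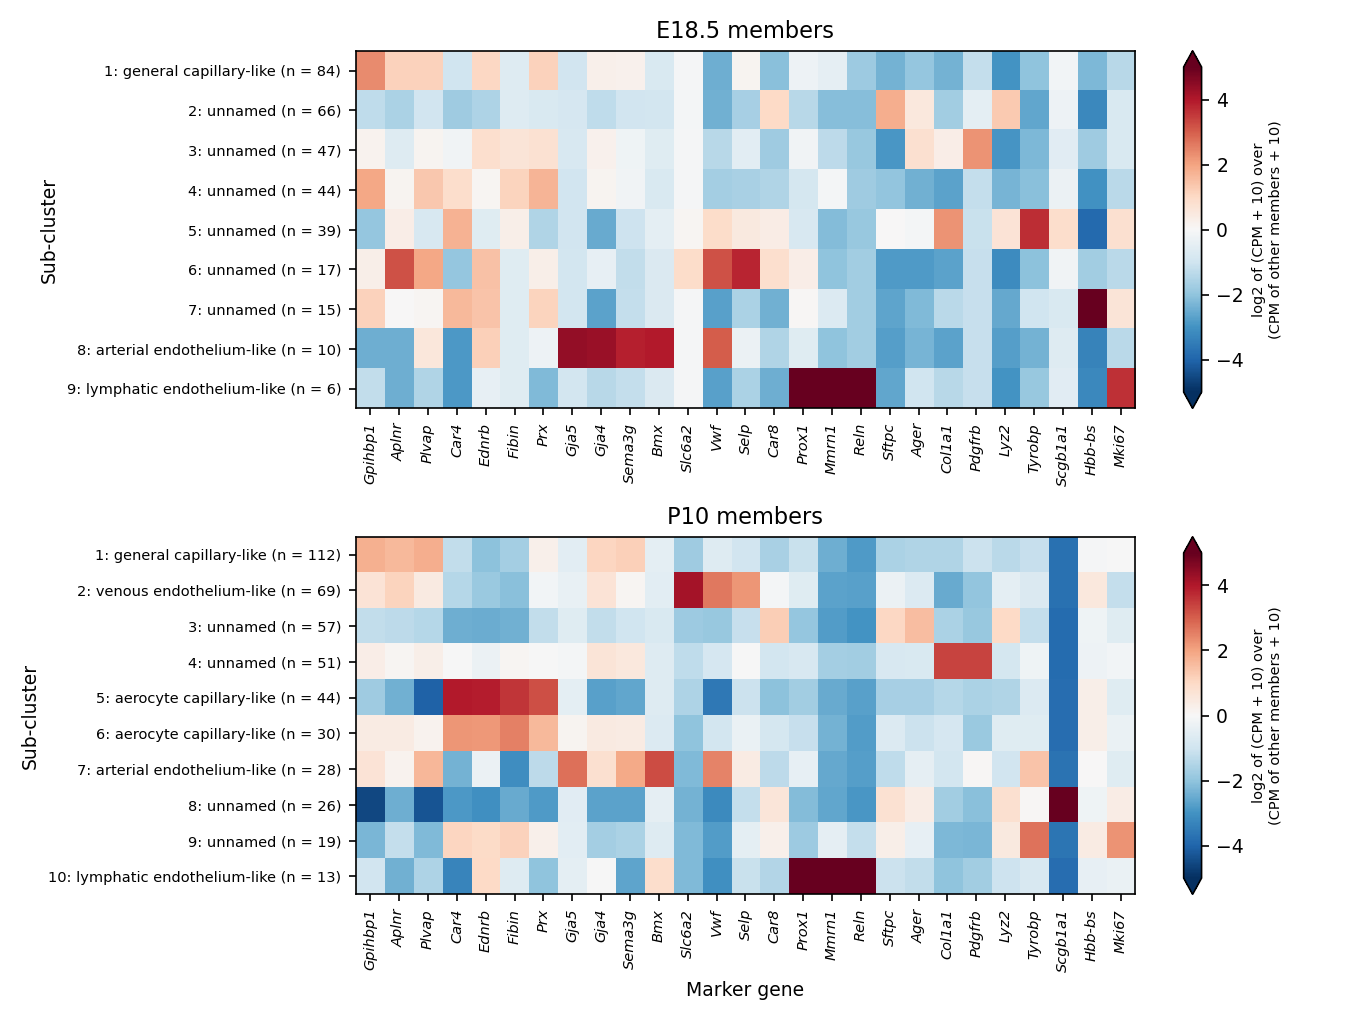
Marker levels in the sub-clusters of members at E18.5 (upper) and P10 (lower), as log2 of a cluster's CPM plus 10 over the CPM of the other members plus 10 (red higher, blue lower, ends of the scale open). The arterial-like and lymphatic-like rows at both ages and the aerocyte-like rows at P10 stand out, and several rows without a name are high in Sftpc, Pdgfrb, Tyrobp, Scgb1a1 or Hbb-bs.

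The ages were then compared within members. Of 9800 genes with at least 10 CPM at either age, 1291 were at least 2-fold higher at P10 (13.2%) and 808 at least 2-fold lower (8.24%). The median log2 ratio over these genes was 0.13, and with ratios taken relative to that median 1034 genes were higher and 1069 lower. Long genes had higher ratios than short ones, with a median of -0.37 for the fifth of genes up to 9.27 kb from first to last base and 0.64 for the fifth from 87.3 kb. The same medians were -0.35 and 0.61 in leukocytes and -0.33 and 0.58 in fibroblasts. For each list below, the number of genes at least 2-fold higher or lower at P10 is to be read against those shares. For many lists the medians in the leukocytes and fibroblasts of the same libraries are given beside it. Each median covers only the genes of a list that were measured in those cells. In the references these were often fewer, as with 7 of 11 BMP genes and 11 of 18 matrix genes in the leukocytes.

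Among genes that members held above the remaining cells, 12 were taken each way by the size of their ratio, and 5 of the 12 higher at P10 are airway genes given further on. Hpgd, another of them, the enzyme that breaks down prostaglandins in the lung (chr8:56294585-56321043 on the plus strand), was at 22.1 (E18.5) and 1195 CPM (P10), 54.0-fold higher (95% interval 44.2 to 66.8). In the low-surfactant members it was at 31.7 and 2176 CPM, and its log2 ratio was 0.15 in the leukocytes and 0.70 in the fibroblasts. After thinning it was detected in 6.30% of members at E18.5 and 82.9% at P10, beside 2.44% and 4.59% of the remaining cells. Most thinned members thus had an Hpgd UMI at P10 and few had 1 at E18.5.

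Sema3c, a secreted guidance factor of general capillary cells (chr5:17574281-17730268 on the plus strand), was at 36.9 (E18.5) and 731 CPM (P10), 19.8-fold higher (95% interval 16.9 to 23.4). It was at 39.2 and 1174 CPM in the low-surfactant members, with a log2 ratio of 0.01 in the leukocytes and 1.69 in the fibroblasts. At E18.5 members and remaining cells held Sema3c at the same level, 36.9 and 36.8 CPM, and at P10 they were at 731 and 35.7 CPM.

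Further genes of the 12 with the largest ratios were Slco1c1, a thyroid hormone and organic anion carrier, at 2.31 (E18.5) and 50.3 CPM (P10), Rgs6, a regulator of G protein signals, at 1.61 (E18.5) and 68.2 CPM (P10), the homeobox gene Pknox2 at 5.76 (E18.5) and 82.5 CPM (P10), the potassium channel gene Kcnh1 at 6.22 (E18.5) and 81.5 CPM (P10) and the aerocyte gene Fibin at 5.07 (E18.5) and 72.7 CPM (P10). Rgs6 and Pknox2 were also higher at P10 in the references, with log2 ratios of 1.803 in the leukocytes and 2.63 in the fibroblasts for Rgs6 and 2.46 in the leukocytes and 1.46 in the fibroblasts for Pknox2. The other 5 genes, Reg3g, Bpifa1, Bpifb1, Scgb3a1 and Scgb1a1, are airway secretory genes. Without the 6 members named above, and 1 such member at E18.5, the log2 ratio of Scgb1a1 went from 4.26 to 0.89 and that of Scgb3a1 from 5.20 to 0.98. Reg3g went from 8.56 to 3.72 and Bpifa1 from 8.03 to 2.43, both still more than 2-fold higher at P10. Bpifb1 gave no ratio there.

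Among the genes higher at E18.5, Sparcl1, a matrix protein of quiescent vessels (chr5:104079111-104113733 on the minus strand), was at 611 (E18.5) and 142 CPM (P10), 4.29-fold lower (95% interval 3.99 to 4.61) at P10. Its log2 ratio was -2.10 in members, beside -0.12 in the leukocytes and 0.40 in the fibroblasts, and it was at 1179 and 223 CPM in the low-surfactant members. Jam2, a junctional adhesion molecule (chr16:84774123-84825928 on the plus strand), was at 114 (E18.5) and 26.1 CPM (P10), with log2 ratios of -2.13 in members, -0.23 in the leukocytes and 0.43 in the fibroblasts. Both references stayed within 2-fold for both genes.

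Fabp4, a fatty acid binding protein (chr3:10204088-10208576 on the minus strand), was at 514 (E18.5) and 34.02 CPM (P10) and in the low-surfactant members at 543 and 104 CPM. It was lower in the references too, with -2.20 in the leukocytes and -2.32 in the fibroblasts. Tmem252 was at 116 (E18.5) and 23.8 CPM (P10), Trp53i11 at 71.7 (E18.5) and 18.4 CPM (P10), Cttnbp2 at 66.6 (E18.5) and 19.4 CPM (P10) and the calcium channel gene Ryr2 at 54.2 (E18.5) and 11.5 CPM (P10). For Ryr2 and Trp53i11 the leukocytes went the other way, with log2 ratios of 1.71 and 1.81. The other genes of these 12 were Pwwp3b, Mest, H19, the hypoxia-responsive Ankrd37 and the heat shock gene Hspa1b, whose reads cannot always be told from its near-identical neighbour Hspa1a.

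Signals of the BMP family reach endothelium through a complex of Acvrl1 (ALK1), Bmpr2 and the co-receptor Eng, act through Smad1 and are limited by Smad6 and Smad7. Of 11 measured genes of this system 5 were higher at P10 and 0 lower, and the median log2 ratio was 0.61 in all members, 0.60 in the low-surfactant members, -0.49 in the leukocytes and -0.32 in the fibroblasts. The ligand gene Bmp6 was at 20.5 (E18.5) and 182 CPM (P10), 8.88-fold higher (95% interval 7.16 to 11.1). Tmem100, a target of ALK1 signals, was at 62.2 (E18.5) and 532 CPM (P10), and in the low-surfactant members at 113 and 1033 CPM. Both genes were thus well separated between the ages, and Tmem100 had log2 ratios of 3.91 in the leukocytes and 2.03 in the fibroblasts.

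Bmpr2, the receptor mutated in heritable pulmonary arterial hypertension, was at 216 (E18.5) and 858 CPM (P10), with log2 ratios of 1.99 in members, -0.19 in the leukocytes and 0.44 in the fibroblasts. Eng was at 81.6 (E18.5) and 261 CPM (P10) and the inhibitor Smad6 at 29.5 (E18.5) and 119 CPM (P10). Acvrl1 itself was at 149 (E18.5) and 227 CPM (P10), short of 2-fold. The target genes Id1, at 329 (E18.5) and 186 CPM (P10), and Id3, at 428 (E18.5) and 227 CPM (P10), were on the other side, also short of 2-fold. The system therefore did not move as 1 block.

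VEGF acts on endothelium through Kdr, Flt1 and Flt4 with the co-receptors Nrp1 and Nrp2. Of 8 measured genes 2 were higher at P10, Flt4 at 19.4 (E18.5) and 43.7 CPM (P10) and Nrp1 at 221 (E18.5) and 455 CPM (P10). Kdr, the main signalling receptor, was at 184 (E18.5) and 235 CPM (P10), and Flt1, a decoy receptor, at 299 (E18.5) and 485 CPM (P10). Neither reached 2-fold. In the clusters carrying no other class Flt4 and Nrp1 had log2 ratios of 0.23 and 0.65, both short of 2-fold, and 0 of the 8 genes were higher. The ligand Vegfa, which AT1 cells make, was lower, at 456 (E18.5) and 86.7 CPM (P10), and its log2 ratios were -3.96 in the leukocytes and -3.00 in the fibroblasts. Its log2 ratio was -2.40 in all members, -1.05 in the clusters carrying no other class and -0.55 in the general capillary-like clusters. AT1 genes had median log2 ratios of -2.06, -1.08 and -1.70 in the same 3 sets, -3.10 in the leukocytes and -2.19 in the fibroblasts. At E18.5 they took a median of 0.953% of UMIs in the leukocytes and 0.253% in members, and at P10 0.061% and 0.128%. The part of AT1 RNA in the Vegfa values was not tested.

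Angiopoietins act on the receptor Tek, which Ptprb restrains. Of 5 measured genes 3 were higher at P10, Tek at 124 (E18.5) and 268 CPM (P10), Ptprb as given above, and Angpt1, a ligand made mainly by mesenchymal cells, at 6.92 (E18.5) and 53.7 CPM (P10). The median log2 ratio was 1.04 in all members, 1.12 in the low-surfactant members, no value in the leukocytes, which expressed none of these genes at 10 CPM, and 0.72 in the fibroblasts. Tie1 was at 60.2 (E18.5) and 82.2 CPM (P10), short of 2-fold. Ptprb helped to choose the members, and of the other 4 measured genes 2 were higher, with a median of 0.89. In the clusters carrying no other class, 0 of 3 measured genes outside the rule were higher, with log2 ratios of 0.75 for Tek and 0.69 for Ptprb. Angpt1 had 30 UMIs at E18.5 and 412 at P10 in all members, but 1 and 26 in the clusters carrying no other class and 0 and 11 in the general capillary-like clusters, too few for a ratio. Pericyte and smooth muscle genes, 6 of 9 measured, were also higher in members at P10, and 1, Acta2, was lower, with a log2 ratio of -1.53. The median log2 ratio of these genes was 1.65, with 1.46 in the clusters carrying no other class and 2.18 in the general capillary-like ones. Their part in the Angpt1 value was not tested.

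In the adrenomedullin system Ramp2 was 2.03-fold (1.94 to 2.12) higher and Calcrl 1.75-fold (1.68 to 1.84), with the decoy receptors on opposite sides, Ackr3 at 192 (E18.5) and 77.7 CPM (P10) and Gpr182 at 21.0 (E18.5) and 40.8 CPM (P10). The ligand Adm was at 15.2 (E18.5) and 4.56 CPM (P10). Ramp2 and Calcrl helped to choose the members, and of the other 6 measured genes 0 were at least 2-fold higher and 2 lower, Ackr3 and Adm. In the clusters carrying no other class the log2 ratio of Ramp2 was 0.48. Among 8 measured Notch genes, which set arterial fate, 0 were higher and 1 lower, Jag2 at 27.4 (E18.5) and 10.6 CPM (P10). The arterial ligand Dll4, at 46.8 (E18.5) and 45.0 CPM (P10), and the receptor Notch1, at 86.9 (E18.5) and 126 CPM (P10), stayed within 2-fold.

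Of 20 measured endothelial transcription factors 3 were higher at P10 and 1 lower, with a median log2 ratio of 0.41 in all members, 0.42 in the low-surfactant members, 1.81 in the leukocytes and 0.68 in the fibroblasts. Only 11 of the 20 were measured in the leukocytes and 13 in the fibroblasts, so these medians rest on different genes. Gata2 was at 28.8 (E18.5) and 99.2 CPM (P10), with log2 ratios of 1.78 in members, 0.82 in the leukocytes and -1.21 in the fibroblasts. Epas1, the HIF-2 alpha subunit, was at 229.6 (E18.5) and 882 CPM (P10), and was higher in the references too, with 2.35 in the leukocytes and 2.23 in the fibroblasts. Tbx3 was at 47.9 (E18.5) and 115 CPM (P10). Sox17 was the lower gene, with values given above, 2.28-fold lower (95% interval 2.03 to 2.56), and at 309 and 125 CPM in the low-surfactant members. The ETS factor Erg, at 89.2 (E18.5) and 139 CPM (P10), and Foxf1, at 129.8 (E18.5) and 169.7 CPM (P10), which lung capillaries require, did not reach 2-fold.

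Junction genes mostly stayed within 2-fold. Of 11 measured genes outside the rule 0 were higher and 2 lower, Jam2 and the gap junction gene Gja1, at 214 (E18.5) and 85.5 CPM (P10). In the clusters carrying no other class the log2 ratio of Gja1 was -0.40 and that of Jam2 -2.52. In general capillary-like clusters alone 4 of 11 were lower.

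Of 13 measured genes that act on vessel tone and clotting 4 were higher and 1 lower, with a median log2 ratio of 0.94 in all members, 1.01 in the low-surfactant members, -0.37 in the leukocytes and 0.62 in the fibroblasts. Thrombomodulin (Thbd), which turns thrombin into an anticoagulant, was at 78.8 (E18.5) and 202 CPM (P10) with log2 ratios of 1.36 in members, 0.30 in the leukocytes and 0.47 in the fibroblasts. Ptgs1, a prostaglandin synthase, was at 46.1 (E18.5) and 93.1 CPM (P10), prostacyclin synthase (Ptgis) at 3.46 (E18.5) and 18.2 CPM (P10) and Entpd1, which removes extracellular ATP, at 47.9 (E18.5) and 168 CPM (P10). The vasoconstrictor gene Edn1 was lower, at 160.4 (E18.5) and 69.6 CPM (P10), and its receptor Ednrb, a gene of aerocytes, stood at 59.5 (E18.5) and 118 CPM (P10). Of 14 genes of this list in the clusters carrying no other class 4 were higher and 3 lower, and in the general capillary-like clusters 4 of 12 were higher and 4 lower. Ptgis had 0 UMIs (E18.5) and 4 (P10) in the latter. Nos3, the endothelial nitric oxide synthase, was alike at 17.7 (E18.5) and 18.1 CPM (P10).

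Carriers and membrane traffic genes differed in both directions. Slco2a1, the prostaglandin uptake carrier, was at 185 (E18.5) and 554 CPM (P10), with log2 ratios of 1.58 in members, 0.16 in the leukocytes and 0.92 in the fibroblasts. Carbonic anhydrase 4 (Car4) was at 61.5 (E18.5) and 128 CPM (P10), and in the low-surfactant members at 44.7 and 256 CPM, while leukocytes had -2.28. Hpgd and Slco2a1, which take up and break down the same prostaglandins, were thus both higher at P10.

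Of 8 caveolae and traffic genes 2 were higher, Ehd4 at 94.3 (E18.5) and 533 CPM (P10) and Plvap at 95.4 (E18.5) and 247 CPM (P10), and 3 were lower, Cav1 at 879 (E18.5) and 406 CPM (P10), Cavin3 at 114 (E18.5) and 43.4 CPM (P10) and Ehd2 at 128 (E18.5) and 50.2 CPM (P10). Cav1 had log2 ratios of -1.11 in members, -5.08 in the leukocytes and -1.56 in the fibroblasts. The leukocytes had a median of 0.953% of UMIs on AT1 genes at E18.5 and 0.061% at P10. Cavin2 was at 297 (E18.5) and 523 CPM (P10). AT1 cells also express caveolar genes, and the part of AT1 RNA in the lower values was not tested. In the low-surfactant members Cav1 was at 1286 and 715 CPM, less than 2-fold apart. Its log2 ratio was -1.08 in the clusters carrying no other class and -0.67 in the general capillary-like ones. Cavin3 and Ehd2 stayed at least 2-fold lower, with -1.12 and -1.06 in the low-surfactant members and -1.61 and -1.52 in the clusters carrying no other class.

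Lipid handling genes also lay on both sides, but only the lower ones reached 2-fold. The fatty acid binding genes Fabp4 and Fabp5, at 1748 (E18.5) and 835 CPM (P10), and Pparg, at 18.4 (E18.5) and 6.91 CPM (P10), were lower, 3 of 7 measured genes, and 0 were higher. The surface genes Cd36, a fatty acid transporter, at 431 (E18.5) and 795 CPM (P10), Lpl at 211 (E18.5) and 329 CPM (P10) and Gpihbp1 at 273 (E18.5) and 379 CPM (P10) were on the higher side and short of 2-fold. The median log2 ratio was 0.26 in all members, -0.47 in the leukocytes and -0.58 in the fibroblasts. Fabp5, Pparg and Cd36 were not among the genes at least 2-fold above the remaining cells at either age. The part of RNA from other cells in their values was not tested.

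Of 18 measured genes of basement membrane and vessel matrix 7 were lower at P10 and 1 higher, and the median log2 ratio was -0.48 in all members, -0.50 in the low-surfactant members, -1.87 in the leukocytes and -0.30 in the fibroblasts. Perlecan (Hspg2) was at 159 (E18.5) and 32.6 CPM (P10), and the elastic fibre gene Fbln5 at 193 (E18.5) and 31.1 CPM (P10). Col15a1 was at 17.7 (E18.5) and 4.04 CPM (P10) and Col18a1 at 33.9 (E18.5) and 12.5 CPM (P10). Lama5, Nid2 and Sparcl1 were the other lower genes. At E18.5, 10 of the 18 genes were at least 2-fold above the remaining cells, and Hspg2, Fbln5 and Lama5 were not among them. The part of RNA from AT1 or other cells in the lower values was not tested. The main collagen chains Col4a1, at 1024 (E18.5) and 741 CPM (P10), and Col4a2, at 509 (E18.5) and 504 CPM (P10), stayed within 2-fold. Mgp, an inhibitor of calcification, was the higher gene, at 66.6 (E18.5) and 165 CPM (P10), but stood at 53.7 and 67.8 CPM in the low-surfactant members.

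Among markers of vessel types, 6 of 11 measured aerocyte genes were higher at P10 and 0 lower, with a median log2 ratio of 1.06, or 1.62 in the low-surfactant members. Prx was at 35.7 (E18.5) and 99.7 CPM (P10), Tbx2 at 23.7 (E18.5) and 69.3 CPM (P10) and Cyp4b1 at 51.9 (E18.5) and 175 CPM (P10), while Apln, also an aerocyte gene, was at 21.7 (E18.5) and 18.2 CPM (P10). Of 8 venous genes 4 were higher, Slc6a2, Car8, Amigo2 and Prss23, and 0 lower. In the low-surfactant members 8 of 9 were higher and 0 lower, and in the clusters carrying no other class 3 of 8 higher and 1 lower. Car8 was also raised in the clusters that carried AT2 genes at both ages, and the part of AT2 RNA in its value was not tested. Slc6a2 had 2 UMIs at E18.5 and 268 at P10, or 0.461 (E18.5) and 34.9 CPM (P10), a ratio of 75.8-fold (20.8 to 629). Prss23 was at 27.0 (E18.5) and 90.4 CPM (P10). Of 10 general capillary genes 4 were higher and 0 lower, Sema3c, Plvap, Tek and Adgrl3. Of 9 arterial genes 2 were higher and 2 lower, but in the low-surfactant members 1 of 12 was higher and 4 lower, and in the clusters carrying no other class 0 of 12 higher and 6 lower. Of 10 lymphatic genes 5 were higher, among them Lyve1 at 162 (E18.5) and 518 CPM (P10) and Reln at 23.1 (E18.5) and 54.3 CPM (P10), and 1 lower. Lyve1 was not confined to the lymphatic-like groups. It was also raised in the general capillary-like groups of both ages, and its log2 ratio within them was 1.69, beside a lymphatic list median of -0.48. In the clusters carrying no other class 1 of 11 lymphatic genes was higher and 1 lower. These sums mix vessel types, and a change within a type cannot be told apart here from a change in the mix.

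No measured gene of the antigen presentation and interferon lists was 2-fold lower at P10 over all members. Of 15 measured interferon response genes 6 were higher and 0 lower, with a median log2 ratio of 0.51 in all members, 0.76 in the low-surfactant members, 0.81 in the leukocytes and 0.58 in the fibroblasts. Of 13 measured, 5 were higher in the leukocytes and 6 in the fibroblasts. Of 15 in the clusters carrying no other class 5 were higher and 2 lower, and in the general capillary-like clusters 6 higher and 3 lower. Irf1, a transcription factor induced by interferon, was at 115 (E18.5) and 420.2 CPM (P10), Ifit1 at 16.6 (E18.5) and 81.1 CPM (P10) and Ifit3 at 15.4 (E18.5) and 89.0 CPM (P10). Of 13 MHC class I genes 5 were higher, among them H2-K1 at 233 (E18.5) and 466 CPM (P10) and the regulator Nlrc5 at 3.69 (E18.5) and 23.3 CPM (P10), and 0 were lower. In the leukocytes 4 of 13 were higher and in the fibroblasts 1 of 8. Reads of H2-Q4, H2-Q6 and H2-Q7, which were also higher, can be shared among near-identical copies.

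Of 6 measured MHC class II genes 5 were higher, with a median log2 ratio of 4.15 in all members, 5.30 in the low-surfactant members, 5.12 in the leukocytes and 4.37 in the fibroblasts. Cd74, the invariant chain, was at 47.3 (E18.5) and 741 CPM (P10) in members but at 69.0 and 1319 CPM in the remaining cells. H2-Aa was at 4.61 (E18.5) and 175 CPM (P10), against 8.04 and 292 CPM. Members were thus below the cells around them, and in the low-surfactant members Cd74 was at 8.95 and 255 CPM. Leukocyte and AT2 RNA both carry these genes, and their part was not tested.

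Many fetal growth genes and genes of glycolysis were lower at P10 in members and in both references. Of 16 measured imprinted and fetal growth genes 11 were lower and 1 higher, with a median log2 ratio of -1.47 in all members, -1.54 in the low-surfactant members, -1.41 in the leukocytes and -1.72 in the fibroblasts. Mest was at 208 (E18.5) and 24.5 CPM (P10) in members against 6.53 and 1.49 CPM in the remaining cells, and Igf2 at 30.7 (E18.5) and 4.30 CPM (P10). Dlk1 was at 1022 (E18.5) and 3.13 CPM (P10) in members, but in the low-surfactant members at 162 and 0.929 CPM, and it led the E18.5 group that carried AT2 genes. Zbtb20, a transcriptional repressor, was the higher gene, at 412 (E18.5) and 1244 CPM (P10).

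Of 16 hypoxia and glycolysis genes 14 were lower and 0 higher, with a median log2 ratio of -1.84 in all members, -1.97 in the low-surfactant members, -1.49 in the leukocytes and -1.37 in the fibroblasts. Pgk1 was at 156 (E18.5) and 34.02 CPM (P10), Ldha at 462 (E18.5) and 119 CPM (P10) and Gapdh at 947 (E18.5) and 260.0 CPM (P10). Egln3, an oxygen sensor induced by hypoxia, was at 48.4 (E18.5) and 2.09 CPM (P10), with log2 ratios of -4.54 in members, -3.09 in the leukocytes and -1.40 in the fibroblasts. This was the lowest median in members among the 22 pathway lists. Of 6 measured cell division genes 0 were higher and 1 lower. Of 12 in the clusters carrying no other class 9 were lower, with a median log2 ratio of -1.88, and these hold the 6 lymphatic-like cells with raised division markers at E18.5. In the general capillary-like clusters 2 of 7 were higher and 1 lower. Of 15 immediate early and stress genes 3 were higher and 2 lower. Leukocyte adhesion genes had 3 of 8 higher and 0 lower, Ly6a at 182 (E18.5) and 581 CPM (P10), Ly6e at 314 (E18.5) and 968 CPM (P10) and the chemokine gene Cx3cl1 at 3.46 (E18.5) and 14.7 CPM (P10). The median log2 ratio of this list was 0.16 in all members, 2.35 in the leukocytes and 1.56 in the fibroblasts. Of its genes in the clusters carrying no other class 1 of 9 was higher and 2 lower, and in the general capillary-like clusters 1 of 8 higher and 3 lower. The tip cell list had 0 of 10 higher and 1 lower, Nid2.

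**Figure D5:**
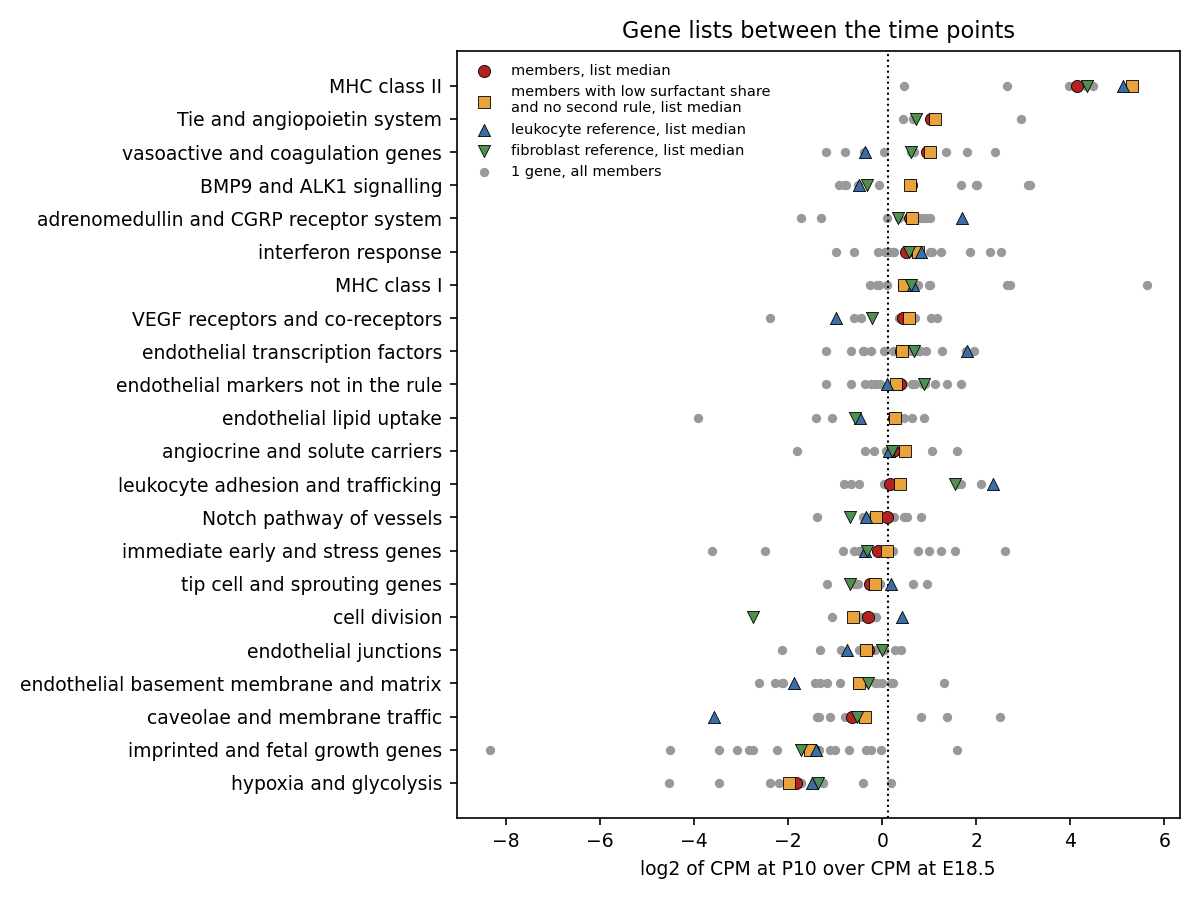
Log2 of CPM at P10 over CPM at E18.5 for each measured gene of the lists (grey), with list medians for all members (red circles), low-surfactant members (orange squares), leukocytes (blue triangles up) and fibroblasts (green triangles down), and the median of all measured genes dotted. The hypoxia and glycolysis list lies lowest in members and the MHC class II list highest in all 4 sets, while the BMP list is above the dotted line in members and below it in both references. Each median covers the genes measured in that set of cells.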

How the data were processed

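The values are raw UMI counts from the matrices that the authors deposited. The file headers give Cell Ranger 7.0.1 as their source, and the submitters' processing notes name the build mm10 and Seurat 4.0.0. Whether intronic reads were counted is not known, and that choice affects long genes. The cell filter asked for 500 genes and 1000 UMIs or more, with mitochondrial UMIs no higher than 20%. The 18 endothelial markers, the gene lists and the members were chosen with earlier results of these data known.

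UMI counts were summed over cells and scaled to CPM. Genes reaching 10 CPM in 1 of the 2 sums were measured, and a ratio of 2 or more counted as higher or lower. Ratios carry exact conditional binomial 95% intervals and shares Clopper-Pearson intervals, for counting error only, since PCR and handling are shared within a library. With 1 library per age there is no replicate, and no p-value was computed. The computation was tested on simulated data.

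Named genes were the rule genes and list genes, the 15 genes with the largest ratio of members to remaining cells per library at 50 CPM or more in members, and the 12 most changed genes each way between ages at 50 CPM or more and at least 2 times the level of the remaining cells. The last 2 sets left out mitochondrial, ribosomal, haemoglobin and unnamed gene models, Xist and Y-linked genes. Members were clustered per library (1500 variable genes, 20 principal components, 15 neighbours, Leiden resolution 0.8). A marker was raised at 2-fold over the other members, with 10 CPM added to both, with UMIs in 10% or more of the cluster's cells. A cluster took a vessel type's name with at least 3 raised markers, at least 1 of them among its 10 leading genes by ratio, and no other class with as many there. This naming rule was chosen with the clusters in view. No doublet caller was run. Tools were Python 3.11.15, scanpy 1.11.5, scipy 1.17.1, igraph 0.11.9, matplotlib 3.10.9, anndata 0.12.19, pandas 2.3.3 and numpy 2.4.6. Alternatives were other rule, filter, depth and pooling settings and subsets of members.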

Additional observations from a re-analysis of the deposited data

Results flagged for a closer look

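Barcodes left out by the cell filter also held endothelial RNA. Of 712 such barcodes at E18.5, 5 carried at least 4 of the 6 rule genes (0.702%, exact binomial 95% interval 0.228 to 1.63), and of 417 at P10, 15 did (3.597%, 2.03 to 5.86). Both counts are above the limit that a count of 0 allows, and these barcodes entered no sum or share.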

How the results depend on the processing

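Ratios of named genes at least 2-fold apart were recomputed under each alternative that applies, leaving out the CPM minimum, which cannot move a ratio, and ratios against 0 UMIs. This gave 1963 values, of which 1957 kept their direction and 1862 were still at least 2-fold apart. Many of these genes were rule genes, endothelial markers or genes picked for a large ratio in the same cells. The settings also share most of their cells. The tally is therefore no independent check of the ratios. Relative to genes of like length 81 of 92 ratios between ages stayed 2-fold apart, and Tek, Nrp1, Ptprb, Reln, Zbtb20, Sox17, Edn1, Cavin3 and Fabp5 were among the others. Reversed log2 ratios to the remaining cells at P10 were those of Scgb1a1, -1.22 with cells thinned, -0.53 without members passing a second rule, -2.11 in low-surfactant members, -2.09 in clusters carrying no other class and -2.05 without the members above 1% club UMIs. Between ages Scgb3a1 reversed to -0.081 in clusters carrying no other class. The low-surfactant members, the clusters carrying no other class, the general capillary-like clusters and the set without members above 1% club UMIs were chosen after seeing the data. The cause of each reversal was not tested.

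Shares and counts moved as follows. With 3 rule genes, members made up 3.05% and 4.40% of cells, the surfactant share at P10 was 3.40% and 39 genes were lower than in the remaining cells at P10. With 5, members made up 2.38% and 2.83%, and 314 genes were lower at P10. With cells thinned, members made up 1.62% and 2.44%, the P10 surfactant share was 2.67%, 1817 genes were higher and 1260 lower at E18.5, and 2483 and 1181 at P10. Without members passing a second rule the shares were 2.37% and 2.70%, with 390 and 242 genes lower at the 2 ages. With the mean of per-cell CPM 966 and 888 were lower. Centred on the median, 454 were lower at P10.

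A minimum of 1 CPM gave 1756 higher and 1011 lower at E18.5, 3039 and 534 at P10, and 3062 and 1467 between ages. A minimum of 50 CPM gave 403 and 13, 686 and 55, and 560 and 437, because fewer genes are tested. The 164 and 225 members with the lower surfactant share gave 1788 and 865 at E18.5 and 2576 and 1076 at P10. Low-surfactant members gave 1852 and 1104, and 2723 and 1295. Clusters carrying no other class gave 2321 and 1566 at E18.5, and 1084 lower at P10. General capillary-like clusters gave 2228 higher and 1244 lower between ages. Resolution 0.4 gave 6 clusters at P10. No paired analysis was possible because each age has 1 library, and no library was left out for that reason.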
